A study of Mus musculus with 6 samples.

Results

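Measured here were 9 genes that mark the projection neurons of the striatum, the basal ganglia structure that lies under the cortex: Drd2, Adora2a and Penk of the indirect pathway, Drd1, Tac1 and Pdyn of the direct pathway, and Ppp1r1b, Rgs9 and Pde10a, which both pathways use. They were chosen by their CPM values in these same libraries, which were high in 1 of them, the library SCFA 2, so that library's excess in them is a description and not a finding. All 9 were among the 24553 genes and unmatched rows of the table, and 6 of them were among the 11969 that passed the filter on low counts. The samples were cortex from male C57BL/6J mice, 15 weeks old, 14 days after a stroke. One group of 3 (SCFA 1 to 3) had drunk short-chain fatty acids (SCFA), products of fibre fermentation by gut bacteria, and the other 3 (control 1 to 3) a control solution with the same salts; both started at 6 to 8 weeks of age and lasted 4 weeks. The drinking water of both groups also held 4 antibiotics (vancomycin, ampicillin, neomycin and metronidazole) and 5% sucrose. Each library was taken as 1 animal. Neither the hemisphere nor the way the cortex was cut from the tissue beneath it is stated in the labels used here.

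Projection neurons make up most of the striatum and release GABA. Those of the direct pathway carry the dopamine D1 receptor, which raises cyclic AMP, and the peptides substance P and dynorphin. Those of the indirect pathway carry the D2 receptor, which lowers cyclic AMP, an adenosine receptor that raises it, and enkephalin. Both depend on a shared set of proteins that handle cyclic AMP, among them the phosphodiesterase PDE10A and the phosphoprotein DARPP-32. Some neurons of the cortex also make enkephalin, substance P, dynorphin or the D1 receptor, so a count of these genes is not by itself a count of striatal cells.

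The libraries held 9275252 to 13862756 counts, of which a single row that could not be matched to a gene took 35.0% to 55.3%. Values are CPM, counts scaled to a common library size by TMM, and 3 counts stood for 0.206 to 0.346 CPM. CPM does not correct for transcript length, so levels are compared between libraries and not between genes. The library control 2 stood apart, with counts in 13600 transcript rows against 15988 to 16941 in the other 5. Cortical identity was visible in all 6 libraries: Slc17a7, the glutamate transporter of cortical excitatory neurons, had 863.8, 966.5 and 960.6 CPM in SCFA 1 to 3, against 721.6, 662.7 and 885.9 CPM in control 1 to 3. Cux1, a gene of the upper layers, was listed at 0 in all 6.

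Among the 6 tested members, the 3 with the largest ratio of SCFA 2 to the other libraries on the log2 CPM scale (prior count 2) were the indirect-pathway genes. Drd2 encodes the D2 receptor (chr9:49340360-49408177, mm10). It had 0.313, 20.8 and 0.447 CPM in SCFA 1 to 3, from 3, 303 and 6 counts, against 2.19, 0.922 and 1.60 CPM in control 1 to 3, from 27, 8 and 16 counts. SCFA 1 and SCFA 3 lay below all 3 controls and SCFA 2 above them, so the groups overlapped. The mean was 7.20 ± 11.8 CPM with SCFA and 1.57 ± 0.632 CPM in controls (SD, n = 3 each). In plain CPM, SCFA 2 stood 22.6-fold above the median of the other 5 libraries. On the log2 CPM scale it stood 4.26 above their median, the largest such value among the 11969 genes tested. This rank describes a gene chosen by these same values. In plain CPM some genes with few counts had larger ratios, among them Cxcl5 (27.5-fold). Bulk tissue gives no means to tell more cells of a type from more RNA per cell.

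Adora2a, the gene of that adenosine receptor (chr10:75316877-75334792), had 0.836, 22.2 and 2.83 CPM in SCFA 1 to 3, against 6.88, 1.27 and 0.200 CPM in control 1 to 3. It ranked next to Drd2 on the log2 CPM scale, where SCFA 2 stood 3.955 above the median of the other libraries. In plain CPM, SCFA 2 was 17.5-fold their median. Control 1 was second highest, at 85 counts against 323 in SCFA 2, and control 3 lowest with 2 counts, so that the control libraries differed among themselves as well. The mean was 8.62 ± 11.8 CPM with SCFA and 2.78 ± 3.59 CPM in controls (SD, n = 3 each).

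Penk, the precursor of the enkephalins (chr4:4133536-4138815), had 26.7, 130.3 and 23.8 CPM in SCFA 1 to 3, against 29.1, 27.9 and 26.6 CPM in control 1 to 3. Apart from SCFA 2, the 5 libraries lay within a narrow band from 23.8 to 29.1 CPM, unlike Drd2 and Adora2a, which varied several-fold among the same 5. SCFA 2 was 4.87-fold above their median. The mean was 60.3 ± 60.6 CPM with SCFA and 27.9 ± 1.26 CPM in controls (SD, n = 3 each).

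The sequence around the start of Drd2, the gene that led this order, is given from RefSeq (GRCm38.p6, 250 bases before to 50 after the start, plus strand, chr9:49340153-49340452). Of the 9 genes, 6 had a promoter entry in that table. Capitals mark GC boxes (GGGCGG on either strand), of which this window holds 2, and 35.7% of 32851 mouse promoters of the same length hold at least 1. It holds neither the cyclic AMP response half-site TGACG (20.8% of promoters) nor a TATAAA (13.6%), searched on both strands.
Drd2: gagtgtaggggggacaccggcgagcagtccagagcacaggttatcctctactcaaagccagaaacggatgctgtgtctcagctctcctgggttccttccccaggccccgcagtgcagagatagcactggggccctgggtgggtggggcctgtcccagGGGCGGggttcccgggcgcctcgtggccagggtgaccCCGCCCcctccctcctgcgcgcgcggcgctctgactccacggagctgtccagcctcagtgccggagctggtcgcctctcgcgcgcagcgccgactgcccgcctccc

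The direct-pathway genes were too low for the test across genes, and none of the 3 passed the filter. Drd1, the gene of the D1 receptor (chr13:54051183-54055658), had 0, 11 and 1 counts in SCFA 1 to 3, against 10, 10 and 0 counts in control 1 to 3. Its highest CPM was in control 2, at 1.153 CPM, followed by control 1 at 0.809 CPM and SCFA 2 at 0.756 CPM. Pooled, Drd1 had 12 counts with SCFA and 20 in controls, a CPM ratio of 0.496 with an exact 95% interval of 0.221 to 1.07 that covers counting error only.

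Tac1, the precursor of substance P (chr6:7555061-7562978), had 4, 16 and 13 counts in SCFA 1 to 3, against 3, 0 and 0 counts in control 1 to 3. It was the only member whose groups did not overlap in CPM, with all 3 SCFA libraries above all 3 controls. The same held, with SCFA higher, for 5.21% of the 18852 genes with at least 1 count, and the converse, with SCFA lower, for 4.32%. Its CPM ratio was 9.09 (2.85 to 46.3, counting error only) from 33 counts with SCFA and 3 in controls, and it was 7.64 without SCFA 2, from 17 counts with SCFA and 3 in controls. SCFA 3 had nearly as many counts as SCFA 2, at 0.968 CPM against 1.10 CPM.

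Pdyn, the precursor of the dynorphins (chr2:129686549-129699938), had 2, 11 and 2 counts in SCFA 1 to 3, against 6, 0 and 4 counts in control 1 to 3. SCFA 2 was highest and control 1 next, and the groups overlapped. The CPM ratio was 1.24 (0.521 to 3.08), and 0.539 without SCFA 2. For Drd1 and Pdyn the interval of the ratio over all libraries included 1.

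For comparison with Drd2, the window at the start of Drd1 (GRCm38.p6, minus strand, chr13:54055609-54055908) holds 1 GC box and neither of the other motifs; the 2 windows listed for Pdyn hold none of the 3, and that of Tac1 holds 2 TGACG half-sites and 1 GC box.
Drd1: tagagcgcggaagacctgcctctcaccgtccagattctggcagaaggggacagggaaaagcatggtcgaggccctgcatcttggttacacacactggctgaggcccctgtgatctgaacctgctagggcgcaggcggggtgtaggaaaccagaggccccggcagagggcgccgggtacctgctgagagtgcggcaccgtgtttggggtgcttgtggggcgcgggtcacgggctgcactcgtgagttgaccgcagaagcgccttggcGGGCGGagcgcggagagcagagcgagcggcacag

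The 3 genes that both pathways use followed the order of the indirect-pathway genes at smaller ratios. Ppp1r1b encodes DARPP-32, which inhibits protein phosphatase 1 once phosphorylated by protein kinase A (chr11:98348406-98357796). It had 12.3, 47.4 and 12.4 CPM in SCFA 1 to 3, against 14.4, 13.1 and 8.61 CPM in control 1 to 3. SCFA 2 was 3.81-fold above the median of the other 5, which lay between 8.61 and 14.4 CPM.

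Rgs9 encodes a regulator that speeds the shut-off of G protein signals downstream of the D2 receptor (chr11:109225348-109298181). It had 9.61, 46.0 and 13.4 CPM in SCFA 1 to 3, against 19.3, 17.8 and 11.0 CPM in control 1 to 3. SCFA 2 was 3.43-fold above the median of the others, and SCFA 1 was lowest. Pde10a encodes the phosphodiesterase that breaks down cyclic AMP and cyclic GMP in both kinds of neuron (chr17:8525187-8986648). It had 3.66, 9.08 and 5.14 CPM in SCFA 1 to 3, against 6.56, 3.57 and 6.11 CPM in control 1 to 3. Its SCFA 2 value, 1.77-fold above the median of the others, was the least set apart of the 6 genes tested and 1.38-fold above control 1. In each of the 6, SCFA 2 was highest and control 1 second, an order that 394 of 11969 genes tested (3.29%) showed. That share is not a fair background for the 6, because they were chosen by high values in SCFA 2. Of the 2440 genes tested in which SCFA 2 was highest, 394 had control 1 second. Nothing is read from the order of the 6.

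**Figure D1:**
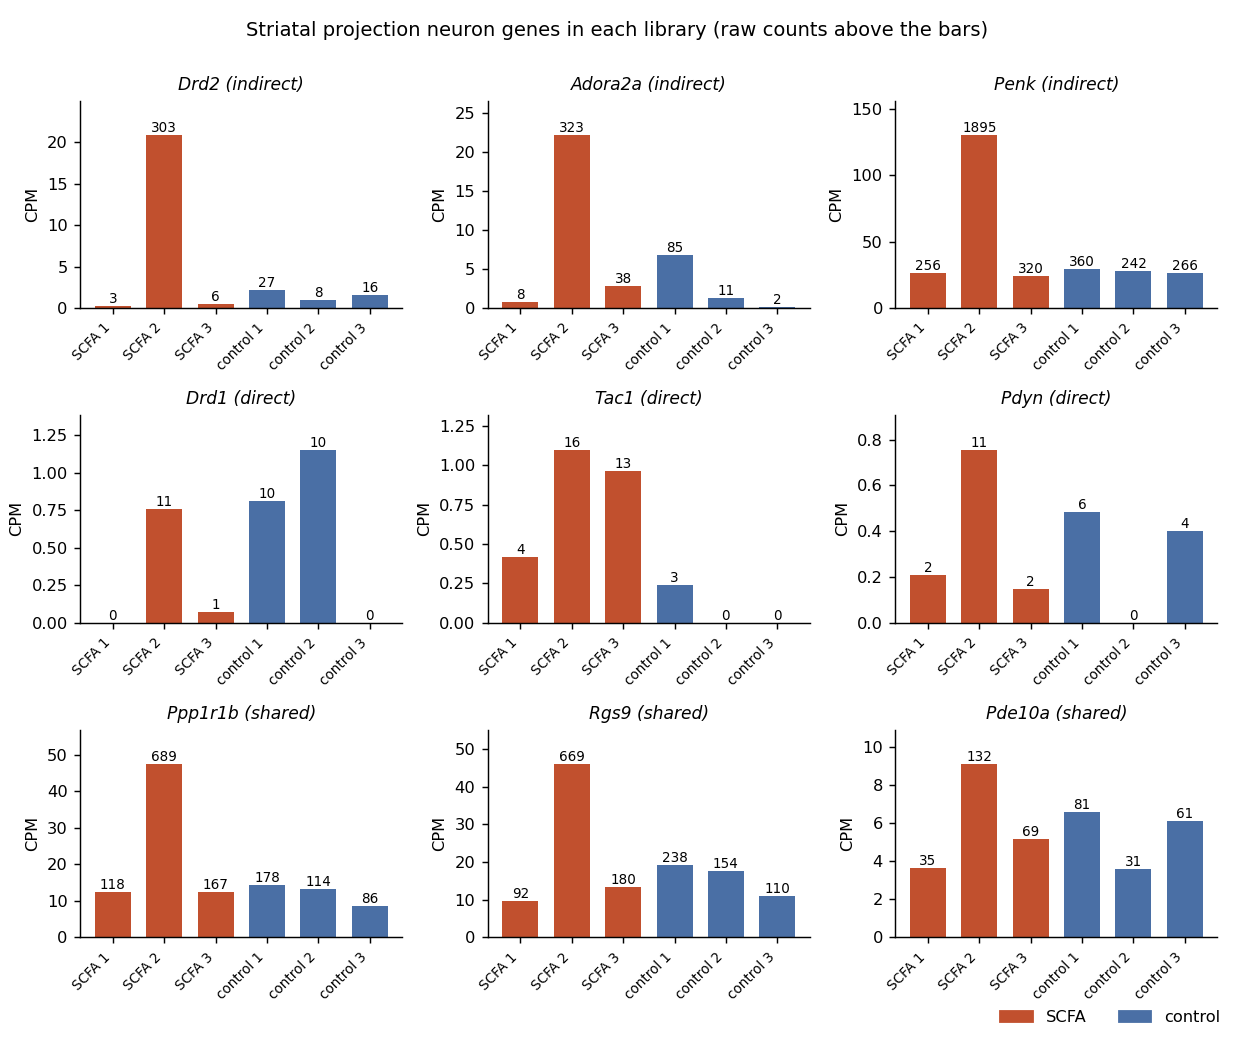
CPM (vertical axis, from 0, on a scale of its own in each panel) of the 9 genes in each of the 6 libraries, with raw counts above the bars. SCFA 2 is the highest bar in every panel but that of Drd1, where control 2 is highest; the 3 direct-pathway genes in the middle row rest on 16 counts or fewer per library.

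Pde10a was read through 2 transcript rows, and its modest total covered 2 different patterns. The row NM_001290707, whose model begins at chr17:8526801, had 22, 45 and 53 counts in SCFA 1 to 3, against 58, 31 and 57 counts in control 1 to 3, so SCFA 2 was not its highest library. The row NM_011866, whose model begins further along the plus strand, at chr17:8801693, had 13, 87 and 16 counts with SCFA, against 23, 0 and 4 counts in controls. Here SCFA 2 was highest and control 1 second, as for the other tested members. This row made up 37.1%, 65.9% and 23.2% of the gene's counts in SCFA 1 to 3, against 28.4%, 0% and 6.56% in control 1 to 3. The exact 95% interval in SCFA 2, from 57.2% to 73.9%, lay above those of all 5 other libraries, the nearest being that of SCFA 1 (21.5% to 55.1%, from 35 counts in all). In control 2, 0 of 31 counts allowed a share of up to 11.2%.

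The 2 rows of Rgs9 kept a closer ratio. NM_001165934 made up 76.1%, 74.9% and 88.3% of the counts in SCFA 1 to 3, against 76.1%, 90.9% and 82.7% in control 1 to 3. SCFA 2, SCFA 1 and control 1 were the 3 lowest, with intervals that overlapped, and that of SCFA 2 (71.4% to 78.1%) lay below those of SCFA 3 and control 2. Of the 1352 Ppp1r1b counts, all but 10 were on the row NM_144828, and those 10 were all in SCFA 2. How reads shared by 2 rows were counted is not stated in the labels used here, so a share describes the rows as counted and not the isoforms.

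**Figure D2:**
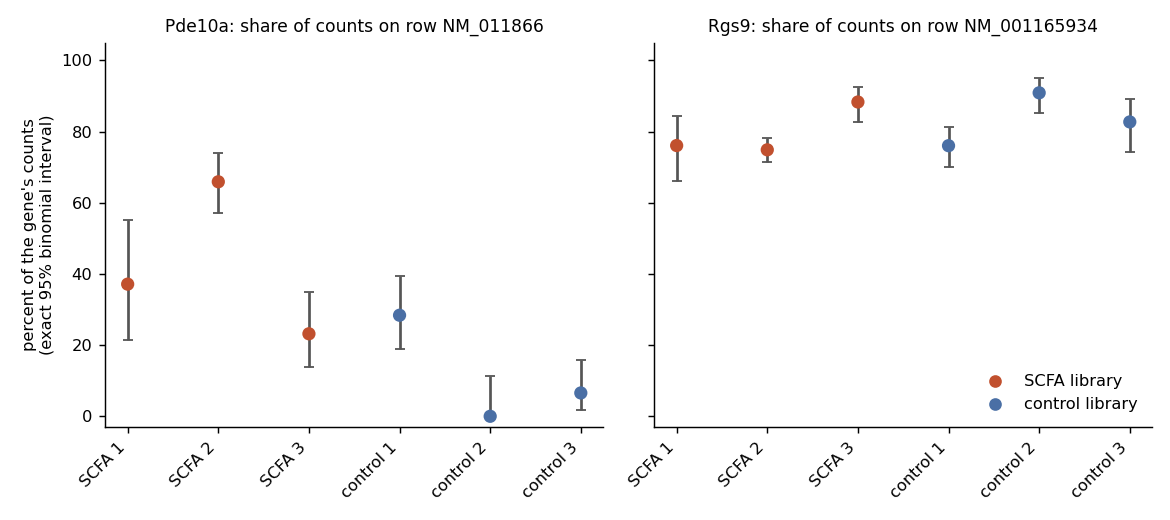
Share of a gene's counts on 1 of its 2 transcript rows (vertical axis, percent; bars, exact 95% binomial intervals for counting error) in each library, for Pde10a (left) and Rgs9 (right). For Pde10a the share was 65.9% in SCFA 2 and at most 37.1% in the other 5; for Rgs9 it lay between 74.9% and 90.9% in all 6.

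The promoter windows that RefSeq lists nearest the start of the Pde10a row NM_011866 (chr17:8801495-8801794, plus strand) and at the start of Rgs9 (chr11:109298132-109298431, minus strand) follow, as the shared members with an entry. The models of both Rgs9 rows start just downstream of its window, which therefore cannot be set beside the share of either row. Capitals mark GC boxes, of which Pde10a has 1 and Rgs9 has 2, and in Rgs9 also a TATAAA.
Pde10a: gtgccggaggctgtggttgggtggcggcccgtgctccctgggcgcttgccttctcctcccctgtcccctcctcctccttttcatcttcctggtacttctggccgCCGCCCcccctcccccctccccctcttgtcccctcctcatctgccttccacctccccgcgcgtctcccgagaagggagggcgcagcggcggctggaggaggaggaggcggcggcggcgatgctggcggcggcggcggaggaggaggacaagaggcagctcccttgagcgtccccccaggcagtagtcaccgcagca
Rgs9: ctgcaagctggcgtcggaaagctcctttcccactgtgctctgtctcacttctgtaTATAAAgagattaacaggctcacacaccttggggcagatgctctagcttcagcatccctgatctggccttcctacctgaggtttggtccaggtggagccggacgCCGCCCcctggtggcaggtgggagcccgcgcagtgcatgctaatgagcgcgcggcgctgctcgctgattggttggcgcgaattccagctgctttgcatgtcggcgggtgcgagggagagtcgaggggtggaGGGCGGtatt

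Compared by treatment across all 6 libraries, none of the 6 tested genes passed edgeR's quasi-likelihood test at an adjusted p under 0.05. Over all genes tested, 0.00835% were higher with SCFA and 0.0752% were lower by that rule, and nothing is read from the members' count because SCFA 2, whose values chose them, is 1 of the libraries compared. The log2 fold changes (SCFA over control) were 2.19 for Drd2 (SE 1.15), 1.61 for Adora2a (SE 1.06), 1.12 for Penk (SE 0.49), 1.0 for Ppp1r1b (SE 0.46), 0.53 for Rgs9 (SE 0.47) and 0.14 for Pde10a (SE 0.48). All 6 were above 0, with a median of 1.06 against 0.01 over all genes, and their adjusted p values by edgeR lay between 0.864 and 0.979. At an unadjusted p under 0.05, edgeR counted 2 of the 6 (Penk and Ppp1r1b) and 5.76% of all genes tested. DESeq2 gave no p for Drd2, called 0 of the other 5, and counted 1 of them at an unadjusted p under 0.05.

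These values rested on 1 library. Without SCFA 2 the log2 fold changes were -2.00 for Drd2 (SE 1.36), -0.59 for Adora2a (SE 1.20), -0.14 for Penk (SE 0.23), 0.04 for Ppp1r1b (SE 0.35), -0.47 for Rgs9 (SE 0.35) and -0.29 for Pde10a (SE 0.55). Thus 5 of the 6 changed sign, and the median was -0.38. Among the remaining libraries both SCFA values of Drd2, from 3 and 6 counts, were below all 3 controls, from 27, 8 and 16 counts. The share of all genes with that order is not given here, so nothing is read from it. The fold changes of Adora2a, Penk, Ppp1r1b and Pde10a lay within 1 SE of 0, and those of Drd2 and Rgs9 did not. No member passed edgeR's test without SCFA 2.

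**Figure D3:**
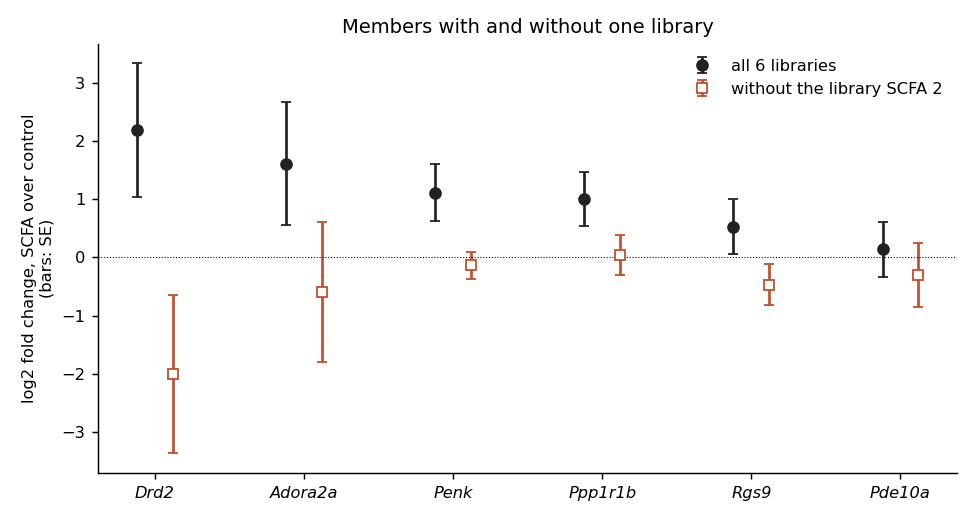
Log2 fold change of each tested gene, SCFA over control, with its standard error (bars), from all 6 libraries (filled circles) and without the library SCFA 2 (open squares). With all libraries the 6 values run from 0.14 to 2.19, and without SCFA 2 they run from -2.00 to 0.04.

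The balance of direct and indirect pathway genes was set out per library. The 3 direct-pathway genes together had 6, 38 and 16 counts in SCFA 1 to 3, against 19, 10 and 4 counts in control 1 to 3. The 3 indirect-pathway genes had 267, 2521 and 364 counts with SCFA, against 472, 261 and 284 counts in controls. Direct-pathway genes thus took 2.20% (exact 95% interval 0.811% to 4.72%), 1.49% (1.05% to 2.03%) and 4.21% (2.43% to 6.75%) of the counts of both in SCFA 1 to 3. In control 1 to 3 they took 3.87% (2.35% to 5.98%), 3.69% (1.78% to 6.68%) and 1.39% (0.380% to 3.52%). The interval of SCFA 2 lay below those of SCFA 3 and control 1 and overlapped the other 3. These intervals cover counting error only, and no test is read from them, because the members were chosen by their values in SCFA 2. Most of the indirect-pathway counts in every library were those of Penk, with 1895 of 2521 in SCFA 2 and 256 of 267 in SCFA 1. The share is thus largely a ratio to Penk. These shares are not corrected for length and mix genes that cortical neurons also express, so they do not count cells.

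On the log2 CPM scale, the mean of the direct-pathway genes minus that of the indirect-pathway genes was -2.79, -5.25 and -2.97 in SCFA 1 to 3, against -3.60, -3.37 and -3.33 in control 1 to 3. SCFA 2 was lowest, the other 2 SCFA libraries were highest, and the 3 controls lay between them. The mean difference was -3.67 ± 1.37 with SCFA and -3.43 ± 0.15 in controls (SD, n = 3 each). The SCFA minus control value was -0.24, and it was 0.55 without SCFA 2 and 0.20 with a prior count of 0.5, so its sign depended on both. No test is read from it, because the members were chosen on these libraries. The comparison is limited by the counting of rows: each indirect-pathway gene has 1 transcript row and each direct-pathway gene has 2, and both rows of Drd1 and of Pdyn fall on the same gene model. The Drd1 row NM_001291801 had 0, 11 and 1 counts with SCFA and 10, 0 and 0 in controls, while NM_010076 had counts only in control 2, where it had 10.

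Slc35d3, Chrm4, Sfxn1, Zfp521 and Isl1, direct-pathway genes of a wider list, have 1 row each and so are free of that split. Slc35d3, a sugar-nucleotide carrier gene that direct-pathway neurons express, did not pass the filter on low counts. It had 0, 51 and 2 counts in SCFA 1 to 3, against 5, 0 and 0 counts in control 1 to 3. SCFA 2 was highest and control 1 second, the order of the indirect-pathway members. Its CPM ratio was 8.76 (3.53 to 28.1, counting error only), and 0.539 without SCFA 2. Chrm4, the M4 acetylcholine receptor gene of direct-pathway neurons, had 12.2, 27.7 and 18.7 CPM in SCFA 1 to 3, against 14.3, 11.99 and 14.6 CPM in control 1 to 3, with SCFA 2 highest and SCFA 3 second. For Chrm4, SCFA 2 was 1.93-fold the median of the others. The ratio was 1.41-fold for Sfxn1, with SCFA 3 second, and 1.46-fold for Zfp521, with SCFA 1 second. Isl1, a transcription factor gene of the direct lineage and of cholinergic neurons, had 12, 18 and 0 counts with SCFA and was listed at 0 in the 3 controls. Over the 5 tested direct-pathway genes of the wider list, SCFA 2 was highest in 3 and its median log2 ratio to the other libraries was 0.49. Over the 6 tested indirect-pathway genes it was highest in 3, with a median of 0.44. These were Gpr6, an orphan receptor gene with 4, 56 and 22 counts in SCFA 1 to 3, against 16, 0 and 0 counts in control 1 to 3, and with smaller ratios Grik3 (1.42-fold) and Gucy1a1 (1.31-fold). Gpr52, another orphan receptor gene, and Ptprm were highest in control 1, and Sp9, a transcription factor gene of the indirect lineage, in SCFA 1.

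A wider list of 47 genes that striatal projection neurons express, none of them a member, was examined in the same libraries. The counts held 46 of them, 4 were listed at 0 in all libraries (Strip2, Meis2, Ebf1 and Plxdc1, each with 2 or more rows) and 37 were tested. None passed edgeR's test in either direction and DESeq2 called 0; at an unadjusted p under 0.05 edgeR counted 3 and DESeq2 counted 2. By edgeR the 3 were Scn4b, a sodium channel subunit gene (log2 fold change 0.84, SE 0.35), Adcy5, the main adenylyl cyclase gene of the striatum (0.47, SE 0.20), and Ano3, a gene of the anoctamin family, which was lower with SCFA (-0.33, SE 0.12). Of the 37, 26 had a log2 fold change above 0, with a median of 0.23, and without SCFA 2 the median was -0.06.

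By library, SCFA 2 was highest in 24 of the 37 (64.9%), where it was highest in 20.4% of all genes tested. The list was chosen with earlier results of these data known, so this share is a description. It is also not particular to striatal genes. SCFA 2 was highest in 8 of 9 tested microglial genes, 6 of 8 astrocyte genes and 6 of 16 genes of cortical excitatory neurons. It was also highest in 6 of 8 genes listed for cortical interneurons, but not in Gad1 or Pvalb. That list holds genes such as Slc32a1 that striatal neurons express too, so it does not separate the 2 tissues. In 10 of the 37, and in 4.65% of all genes, the log2 CPM of SCFA 2 was more than 1 above the median of the others. The median log2 ratio of each library to the other 5 was -0.16, 0.53 and -0.17 in SCFA 1 to 3, against -0.05, 0.09 and -0.10 in control 1 to 3. For the 6 members that median was -0.79, 2.10 and -0.23 with SCFA, against 0.43, -0.32 and -0.33 in controls, so control 1 stood above the others in the members and not in the wider list. Among list genes with 1 transcript row, SCFA 2 was highest in 17 of 22 (all genes with 1 row, 21.3%). Among those with 2 or more rows it was highest in 7 of 15 (all such genes, 15.7%).

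**Figure D4:**
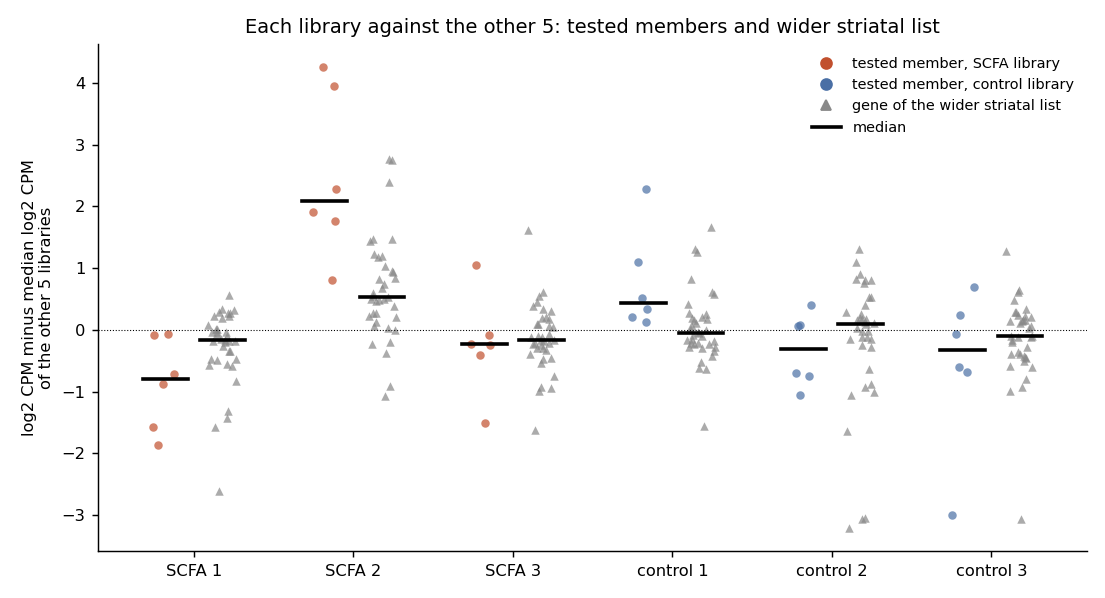
Log2 CPM of each library minus the median log2 CPM of the other 5 (vertical axis), for the 6 tested members (circles, coloured by treatment) and the 37 tested genes of the wider list (grey triangles), with medians as bars. In SCFA 2 the medians are 2.10 and 0.53; in the other 5 libraries those of the members lie between -0.79 and 0.43 and those of the wider list between -0.17 and 0.09.

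Within the wider list the excess of SCFA 2 was uneven. Syndig1l had 6.06, 43.7 and 6.33 CPM in SCFA 1 to 3, against 20.5, 9.22 and 6.01 CPM in control 1 to 3. SCFA 2 was highest and control 1 second, with SCFA 2 above control 1 by 2.13-fold. Scn4b was 2.77-fold above the median of the others in SCFA 2, and Rasd2, a small GTPase gene of the striatum, was 2.72-fold above. At the other end, Itpr1, the inositol trisphosphate receptor gene (1.04-fold), Cnr1, the cannabinoid receptor gene (1.09-fold), and Dgkb, a diacylglycerol kinase gene (1.39-fold), stood close to the other libraries. Cortical neurons use these genes too, and whether that bears on their ratios was not tested. Foxp1, a transcription factor gene of both tissues, was 0.465-fold the median of the others in SCFA 2, and Ptpn5, the gene of the phosphatase STEP, 0.521-fold.

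Genes were then ranked by how closely their profile over the 6 libraries followed the mean profile of the 6 tested members, measured as the root mean square difference of centred log2 CPM, over the 8316 genes whose log2 CPM averaged 2 or more. Among the 10 closest were Syndig1l (0.285), Lrrc10b (0.358), Tgfa (0.420), Sf3b4 (0.474), Igtp (0.484), Ndst4 (0.505), Glmp (0.525), Scn4b (0.527) and Il4ra (0.531). Of these, Syndig1l and Scn4b were on the wider striatal list. The members' mean profile was 2.07 in SCFA 2 and -0.86 to 0.34 in the other libraries. The ranking therefore favours genes that are high in SCFA 2, and nothing is read from which lists its genes are on. Lrrc10b had 4.07, 27.9 and 4.47 CPM in SCFA 1 to 3, against 13.5, 7.26 and 3.10 CPM in control 1 to 3, again with SCFA 2 highest and control 1 second. Tgfa, the gene of a ligand of the EGF receptor, had 8.98, 31.7 and 10.4 CPM with SCFA, against 10.04, 10.03 and 6.41 CPM in controls.

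Among genes of the dopamine and cyclic AMP pathway, a list that holds 6 of the members and 6 genes of the wider list, 17 of 20 were tested, none passed the test in either direction, and SCFA 2 was highest in 9. Without the members it was highest in 4 of 12. Among these, Rgs7bp, which anchors RGS9 at the membrane, had 270.7, 341.8 and 296.8 CPM in SCFA 1 to 3, against 315.4, 268.8 and 310.0 CPM in control 1 to 3. Prkacb, a catalytic subunit gene of protein kinase A, had 17.0 to 18.7 CPM with SCFA and 16.1 to 20.9 CPM in controls. Of the genes that process neuropeptides 8 of 9 were tested, none passed, and SCFA 2 was highest in 3. Its highest ratio among them was that of Chga, the chromogranin A gene (87.3 CPM in SCFA 2, median of the others 45.7 CPM). Of the receptors for these peptides 2 of 5 were tested and none passed. Tacr1, the substance P receptor gene, was highest in SCFA 2, at 2.82 CPM against a median of 0.670 CPM in the others, and Oprd1, the delta opioid receptor gene, had 12.3 CPM in SCFA 2 against a median of 11.3 CPM.

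Markers of other cell types were set beside the excess in SCFA 2. Summed over the list, the 19 listed genes of cortical excitatory neurons that had a row came to 2006 CPM in SCFA 2 and 1573 to 1895 CPM in the other 5, with a median log2 ratio of 0.13 and SCFA 2 highest in 6 of 16. The 13 genes of cortical interneurons came to 487.6 CPM, against 341.0 to 407.8 CPM in the other 5 (median log2 ratio 0.63, highest in 6 of 8, 4 of the 13 at 0). Slc32a1, the vesicular GABA transporter gene, had 41.1 CPM in SCFA 2 and 14.9 to 27.7 CPM in the others. Striatal projection neurons express it as well, and which cells its counts came from was not tested. Gad1 and Gad2, which make GABA, were not set apart: Gad1 had 67.1 CPM in SCFA 2 and 71.6 CPM in control 1, and Gad2 had 136.6 CPM in SCFA 2 and 128.5 CPM in control 2.

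Glial lists moved with SCFA 2 as well. The 10 microglial genes summed to 926.0 CPM in SCFA 2 and 351.4 to 626.8 CPM in the others (median log2 ratio 0.97, highest in 8 of 9), with 609.4 to 926.0 CPM over the SCFA libraries and 351.4 to 459.8 CPM over controls. Laptm5, a lysosomal gene of microglia, was the only gene higher with SCFA among all those tested. The 8 astrocyte genes summed to 1593 CPM in SCFA 2 and 796.9 to 1281 CPM in the others (median 0.59, highest in 6 of 8). The part of either list in the members' excess was not tested. The lists for white matter (median log2 ratio 0.21), all neurons (0.17), hippocampus (0.09), choroid plexus and ependyma (0.06), thalamus (0.00), ventral striatum (-0.01), migrating neuroblasts (-0.02), globus pallidus (-0.22), lateral septum (-0.33) and claustrum and amygdala (-0.36) were nearer to 0 or below it. The medians for ventral striatum, globus pallidus and lateral septum rest on only 2 tested genes each, so little can be read from them. Crym, 1 of the 2 for ventral striatum, is also on the list of cortical excitatory neurons. Drd3, a receptor gene of the ventral striatum, was listed at 0 in 5 of the 6 libraries and had no counts in SCFA 2.

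**Figure D5:**
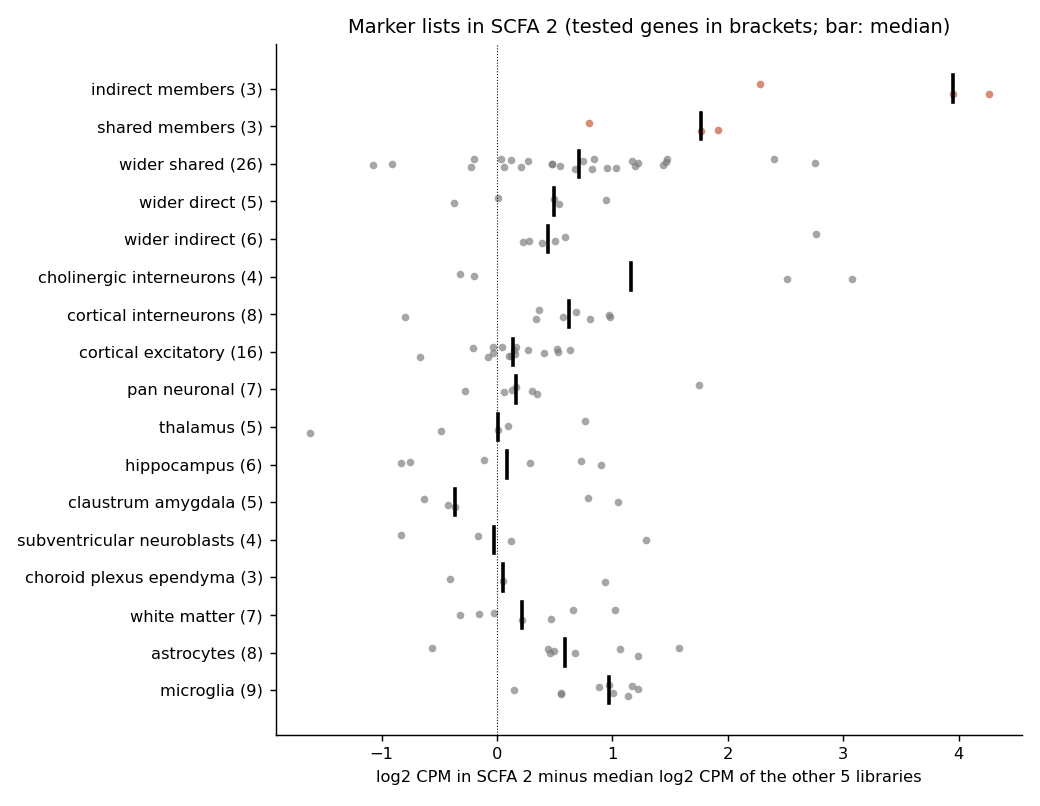
Log2 CPM in SCFA 2 minus the median log2 CPM of the other 5 libraries (horizontal axis) for each tested gene of the lists (rows; number tested in brackets), with the median as a bar. The indirect-pathway members (median 3.95) and the shared members (1.77) lie furthest to the right, the wider striatal lists between 0.44 and 0.71, and microglia at 0.97.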

How the data were processed

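RNA from cortex of 6 mice was sequenced. The authors deposited raw counts per RefSeq transcript (34755 rows), made with CASAVA 1.8.2 and featureCounts on mm10, per the submitters' processing notes; which aligner and strand setting were used, and how shared reads were counted, is not stated in the labels. RefSeq's table for GRCm38.p6 matched 34424 rows (99.05%) to symbols, rows were summed per symbol, and 0 columns were left unmapped. Genes were filtered with filterByExpr (minimum count 10, total 15), scaled by TMM and tested with edgeR 4.0.16 in R 4.3.3 (quasi-likelihood test, Benjamini-Hochberg over 11969 genes, threshold 0.05). Log2 CPM used a prior count of 2. DESeq2 1.42.0, other scalings and filters, left-out libraries and the replicate block were alternatives.

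The members and the 25 gene lists were chosen with earlier results of these data known. Named genes are the 9 members, the 3 tested genes per list with the largest ratio in SCFA 2, and the 10 nearest profiles; some genes that the rule names are not reported here. Other genes of the wider list (Rasd2, Adcy5, Ano3, Itpr1, Cnr1, Dgkb, Foxp1, Ptpn5, Isl1 and Slc35d3) and the other genes given with values were chosen after their values were seen. The balance of pathways was planned over tested members, but no direct-pathway gene passed the filter, so all 3 of each pathway were used. Deviations from the group means did not correlate between libraries of the same number (-0.00206, 0.0101 and -0.00525 for numbers 1 to 3), so the numbers were not taken as pairs. Transcript starts and row models are those of GENCODE M21. Intervals and floors cover counting error only, at 95%, and p-values measure the spread between these 6 libraries. The script was tested on simulated data.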

Additional observations from a re-analysis of the deposited data

How the results depend on the processing

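Without SCFA 2, the log2 fold change turned to -2.00 for Drd2, -0.59 for Adora2a, -0.14 for Penk, -0.47 for Rgs9 and -0.29 for Pde10a; without SCFA 2 and control 2 it was -2.27, -0.94, -0.14, -0.39 and -0.52 for the same genes. Leaving out 1 library at a time, it was at most 2.74 for Drd2, 3.58 for Adora2a, 1.499 for Penk, 0.90 for Rgs9 and 0.40 for Pde10a. It was also below 0 for Drd2 with the replicate block (-0.22), and for Pde10a without control 2 (-0.08) and on its most counted row (-0.58). The direct minus indirect difference, SCFA minus control, was -0.24 and turned to 0.20 with a prior count of 0.5; leaving out 1 library at a time it ran from -0.68 to 0.55. Taken as differences within same-numbered pairs, the value over all libraries is -0.24 by arithmetic, so the replicate block is no check on it. Without a filter on low counts 1 member passed edgeR's test with SCFA higher (Penk, adjusted p = 8.92e-05) and 1 gene of the wider list (Scn4b, adjusted p = 0.00654), where neither did with the filter (adjusted p = 0.864 for both). Over all genes tested, 1 was higher and 9 lower with SCFA, against 30 and 25 without the filter, 14 and 17 by DESeq2, and 10 and 12 with the replicate block. Under the other settings 0 members passed in either direction, with no adjusted p from DESeq2 for Drd2. Scaling by total counts moved the median of all genes to 0.18 and that of the members to 1.33. The cause of these changes was not tested, except that each left-out fit has fewer samples. Drd1, Tac1 and Pdyn are limited by counts of 16 or fewer in each library and by the counting of 2 rows for each, and a group of 3 cannot show which library is typical.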

Other observations

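The striatum also holds cholinergic interneurons, and 4 of the 8 genes listed for them were tested. Slc5a7, the choline transporter gene, had 0, 118 and 20 counts in SCFA 1 to 3, against 10, 9 and 8 counts in control 1 to 3, so SCFA 2 was highest; it was highest in 1 of the 4 tested. Lhx8, a transcription factor gene of these neurons, had 16 counts with SCFA, of which all but 3 were in SCFA 2, and 2 in controls. Slc17a8, a glutamate transporter gene, and Zic4 were 0.778-fold and 0.863-fold the median of the others in SCFA 2, and Slc18a3, the vesicular acetylcholine transporter gene, had 2, 1 and 1 counts with SCFA, against 7, 8 and 0 counts in controls. Chat, which makes acetylcholine, had 16, 12 and 13 counts in SCFA 1 to 3 and was listed at 0 in the 3 controls, with SCFA 1 highest. All SCFA libraries lay above all controls, with SCFA higher, in 5.21% of the 18852 genes with at least 1 count. Chat did not pass edgeR's test (adjusted p = 0.830). The summed CPM of the 8 genes was 7.97 to 14.4 with SCFA and 6.01 to 7.95 in controls, with SCFA 2 highest. Of the genes for dopaminergic terminals, Slc6a3, the dopamine transporter gene, was listed at 0 in all 6 libraries, and Th, which makes the dopamine precursor, had 1.72 CPM in SCFA 2 and 1.61 CPM in control 2.

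Genes outside the lists also had large ratios in SCFA 2, and these were picked after their values were seen. Ano2, a chloride channel gene, had 0.418, 7.49 and 1.71 CPM in SCFA 1 to 3, against 1.86, 0.231 and 0 CPM in control 1 to 3, and Rem2, a small GTPase gene of neurons, had 0.522, 6.26 and 0.596 CPM with SCFA, against 2.75, 1.84 and 0.501 CPM in controls. Both had SCFA 2 highest and control 1 second.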
